A study of Mus musculus with 4 samples.

Results

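The genes described here are 42 genes of 5 DNA repair routes: mismatch repair (5 genes), the DNA glycosylases that open base excision repair (11), its later steps (7), nucleotide excision repair (11) and end joining (7), with Mgmt, which removes alkyl groups from guanine directly, as a route of its own. They were chosen by name, with earlier results of these data known. Every probe set annotated to 1 of them and to no other gene was taken. This gave 80 probe sets of 45037 tested and 39 genes of 18161 measured. Tdg has probe sets only in common with further genes, and Neil2 and Dclre1c are not named by a probe set here, so these 3 were not measured. A gene's value comes from whichever of its probe sets was brightest on average over the 4 arrays, and its further probe sets are given where they differ.

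The study sorted LSK cells from the bone marrow of mouse femurs. LSK cells lack lineage markers and carry c-Kit and Sca1, and they hold the haematopoietic stem cells and multipotent progenitors. The mice are labelled as wild type with a B6/129 background in all samples; the sources used here give neither their age nor the allele that encodes the c-Myc-eGFP fusion protein. The Hi group holds LSK cells with a high level of this fusion protein and the Lo group LSK cells with a low level, with 2 arrays each. Nothing in the labels says that the arrays of a group came from separate mice, so a p-value measures only the spread between these arrays, which may be technical. RNA from 5 ng of total RNA was amplified before hybridisation, and the values are log2 of the deposited intensities.

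Mismatch repair corrects bases mispaired by the replicating polymerases. Base excision repair starts with a glycosylase that cuts out a damaged or wrong base, after which the abasic site is cut, filled and sealed. Nucleotide excision repair removes bulky lesions as a short oligonucleotide, and end joining ligates broken chromosome ends without a template. Mismatch repair and several base excision enzymes work with the replication fork, whereas end joining also serves cells that do not divide, such as quiescent stem cells.

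Base excision repair held the largest differences. The glycosylase genes Ung and Neil3 were 3.60-fold and 2.83-fold higher in Hi, and Mutyh, Mbd4, Apex2, Apex1 and Polb were between 1.34-fold and 1.61-fold higher. Outside this route Ercc8 of nucleotide excision repair was 1.77-fold and Pms2 of mismatch repair 1.73-fold higher, while no gene of end joining had an unadjusted p under 0.05. The 9 genes named as higher here had such a p in the fit with limma, and 0 of the 39 members passed an adjusted p of 0.05 in either direction. Over all genes the share past the adjusted threshold was 0.0% higher and 0.0% lower, and the smallest adjusted p over all probe sets was 0.0839.

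At an unadjusted p under 0.05 the members counted 9 of 39 higher, or 23.1%, and 0 lower. The same count over all genes was 9.26% higher and 11.0% lower. The count of 9 became 4 without Hi replicate 1 (Ercc8, Mutyh, Neil3 and Ung) and to 3 without Hi replicate 2 (Mbd4, Neil3 and Ung). Leaving out Lo replicate 1 gave 6, and leaving out Lo replicate 2 gave 9. In 16 members, or 41.0%, the lower Hi array stood above the higher Lo array, against 30.0% of all genes, and in 2 members, or 5.13%, the Hi arrays stood wholly below Lo, against 25.4%. The members are rarely dim: 38 of 39 were above the limit set by control probe sets with no added transcript on at least 2 arrays, against 70.4% of all genes. Among the genes that were above it, 11.9% passed this threshold as higher and 15.0% as lower, and 28.9% lay above and 31.9% below without overlap. The median log2 difference of Hi minus Lo was 0.23 over the 39 members and 0.03 over all genes. Among the 80 probe sets of the members 22 passed this unadjusted threshold as higher and 2 as lower, against 9.05% and 8.91% of all probe sets; without overlap 36 stood above and 7 below, against 29.3% and 22.0%.

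**Figure D1:**
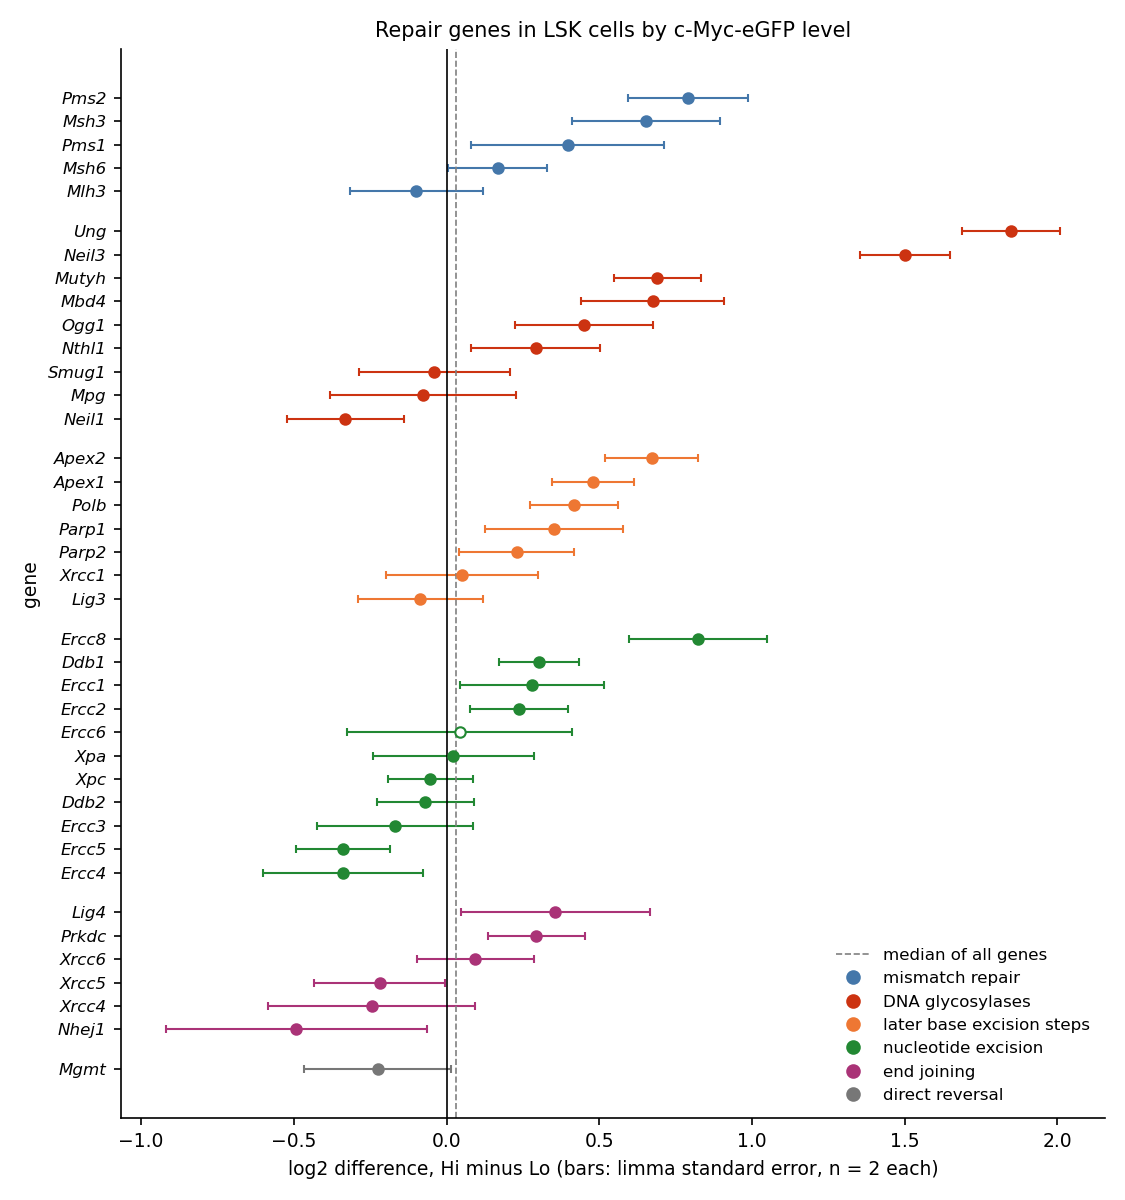
Log2 difference of Hi minus Lo for the 39 measured repair genes, grouped by route and ordered within it; points are the fitted differences, bars the limma standard error with 2 arrays per group, the dashed line the median of all genes (0.03) and the open point a gene that never exceeded the dim limit (Ercc6). Ung at 1.85 and Neil3 at 1.50 stand to the right of all other members, and the end joining genes lie between -0.49 and 0.36.

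The glycosylases differed most among themselves. Of 9 measured, 4 were higher at an unadjusted p under 0.05 and 0 lower, against 9.26% and 11.0% of all genes. The median difference was 0.45, with a range from -0.33 to 1.85. Ung, the glycosylase that removes uracil from DNA and much of whose work follows the fork, had log2 intensities of 12.08 and 11.88 on the Hi arrays and 10.04 and 10.22 on the Lo arrays. The groups were far apart and the arrays of each group close. The difference was 1.85 ± 0.16 (SE), with a limma adjusted p of 0.0839, and Ung ranked 99 of 18161 genes by p. Neil3, which acts on oxidised bases and on crosslinks at forks and is known mainly from dividing cells, had 10.08 and 10.22 in Hi and 8.72 and 8.58 in Lo. Again the groups did not overlap, and the difference of 1.50 ± 0.15 (SE) had a limma adjusted p of 0.0846. Its second probe set never exceeded the dim limit and gives no order. Leaving out any single array, Ung ran from 1.75 to 1.95 and Neil3 from 1.43 to 1.58. Ung and Neil3 were the only members to pass an adjusted p of 0.05 in 2 fits over genes in place of probe sets. With each gene's probe sets averaged, limma gave adjusted p = 0.0313 for Ung and 0.0390 for Neil3. In that fit 1.39% of genes were called higher and 1.52% lower. The Neil3 average takes in its dim probe set, which raised the difference from 1.50 to 1.69. With 1 probe set per gene, an alternative added after the data were seen, limma gave adjusted p = 0.0385 and 0.0411, where 1.05% were called higher and 1.18% lower.

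**Figure D2:**
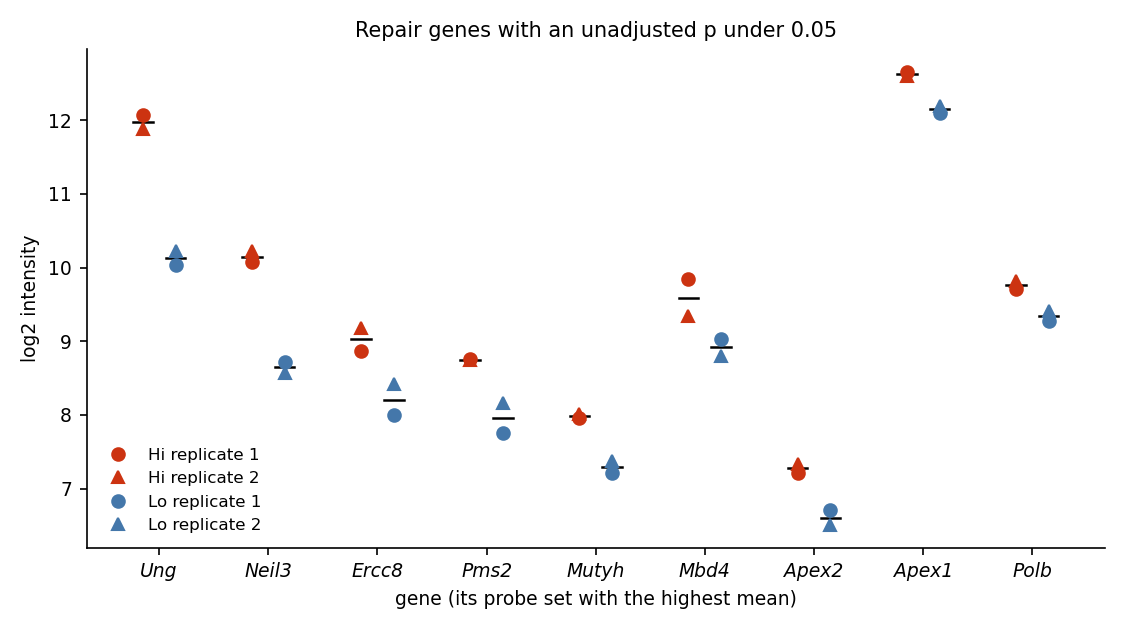
Log2 intensity on each array for the 9 repair genes with an unadjusted p under 0.05, ordered by their difference; red marks are Hi and blue marks Lo arrays, circles replicate 1 and triangles replicate 2, and black bars the group means. In all 9 genes the red marks lie above the blue ones, by the widest margin in Ung and Neil3.

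Further glycosylase genes for oxidised and mismatched bases were higher by less. Mutyh, which removes adenine paired with 8-oxoguanine, had 7.95 and 8.01 in Hi and 7.21 and 7.37 in Lo, a difference of 0.69 ± 0.14 (SE) with a limma adjusted p of 0.144. Mbd4, which removes thymine and uracil opposite guanine at methylated sites, had 9.84 and 9.34 in Hi and 9.03 and 8.80 in Lo. Its arrays did not overlap, but the Hi arrays stood 0.50 apart. Its 3 probe sets disagreed in sign, with differences of 0.68, 1.06 and -0.42. In the last of these the Lo arrays (6.47 and 8.32) spanned the Hi arrays, with a 95% interval from -2.28 to 1.44. Ogg1, the partner of Mutyh that removes 8-oxoguanine itself, had 8.39 and 8.37 in Hi and 8.19 and 7.67 in Lo. Here too the groups were apart, yet the difference of 0.45 ± 0.23 (SE) had a 95% interval from -0.18 to 1.08. The further probe set of Ogg1 gave 0.34 with overlapping groups. Nthl1, for oxidised pyrimidines, had a difference of 0.29 ± 0.21 (SE), and its groups overlapped.

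The remaining glycosylase genes were level or lower. Neil1, a relative of Neil3 that also acts on oxidised bases, had 8.66 and 8.27 in Hi and 8.75 and 8.85 in Lo, so that both Hi arrays lay below both Lo arrays. Its difference of -0.33 ± 0.19 (SE) had a 95% interval from -0.87 to 0.20, and that of Neil3 ran from 1.09 to 1.91; whether the 2 genes differed was not tested. Smug1, a second uracil glycosylase, had 8.65 and 8.46 in Hi and 8.31 and 8.88 in Lo. The groups overlapped, and the 95% interval of the difference ran from -0.73 to 0.65, while that of Ung ran from 1.40 to 2.30. Mpg, which removes alkylated purines, had a difference of -0.08 ± 0.30 (SE) with overlapping groups, and its dimmest probe set was at least 2.01-fold higher in Lo (limma adjusted p = 0.277). Smug1 and Mpg, at -0.04 and -0.08, moved just above 0 when the arrays were shifted to 1 median (0.06 and 0.02).

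The stretches of DNA before the starts of Ung and Neil3 are shown because these genes had the largest differences, and that of Apex1 because it held the most matches. Promoter windows of 300 bases, from 250 before to 50 after the start, were found for 35 of the 42 genes in RefSeq tables of build GRCm38.p6. They were searched on both strands for the Myc word CACGTG, which reads the same on both, and for the E2F word TTCCCGC, its close variant TTCGCGC, a further variant TTGCCGC and a last variant TTGGCGC, counting overlapping matches separately. Capitals mark a match; the sequences read 5′ to 3′ towards the start and end with the base before it. They lie at chr5:114130235-114130434 on the plus strand for Ung, chr8:53639066-53639265 on the minus strand for Neil3 and chr14:50924699-50924948 on the plus strand for Apex1.
Ung: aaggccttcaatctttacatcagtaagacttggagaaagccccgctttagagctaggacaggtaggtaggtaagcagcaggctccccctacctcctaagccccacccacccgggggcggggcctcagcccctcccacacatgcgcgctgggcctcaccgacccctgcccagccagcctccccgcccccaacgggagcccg
Neil3: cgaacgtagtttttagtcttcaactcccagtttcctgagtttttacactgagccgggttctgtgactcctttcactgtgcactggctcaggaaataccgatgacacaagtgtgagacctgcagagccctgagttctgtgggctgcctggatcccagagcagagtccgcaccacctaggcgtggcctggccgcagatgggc
Apex1: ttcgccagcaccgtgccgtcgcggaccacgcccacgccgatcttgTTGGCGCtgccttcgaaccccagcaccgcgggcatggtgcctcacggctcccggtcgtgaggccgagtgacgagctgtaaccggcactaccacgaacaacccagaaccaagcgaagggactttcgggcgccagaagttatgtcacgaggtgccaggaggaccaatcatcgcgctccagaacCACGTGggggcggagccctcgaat
The windows of Ung and Neil3 held none of these words. That of Apex1 held 3 matches to CACGTG, 1 of them shown and 2 after the start, and 1 to an E2F word. Of the 35 genes, 8 had a match to CACGTG, or 22.9%, against 8.91% of protein-coding genes in the table, and 13 had an E2F word, or 37.1%, against 13.7%. The genes with an E2F word were Pms2, Mbd4, Apex1, Msh3, Pms1, Ercc1, Ercc2, Nthl1, Lig4, Msh6, Xrcc6, Xrcc4 and Ercc5. Msh3 and Pms1 had 2 each. Of these 13 genes Pms2, Mbd4 and Apex1 were higher at an unadjusted p under 0.05 in the limma fit, and Xrcc4 and Ercc5 had the lower mean in Hi. Among all 39 measured members 23.1% were higher at that threshold, and over all genes 9.26%. A link between the words and the differences was not tested. A match is a run of letters in a window and shows no binding.

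Of the 7 genes of the later steps, 3 were higher at an unadjusted p under 0.05 and 0 lower. Over all genes the shares were 9.26% and 11.0%. The median difference was 0.35, with a range from -0.09 to 0.67. Apex1, the main endonuclease that cuts abasic sites, had 12.66 and 12.60 in Hi and 12.11 and 12.19 in Lo. The difference was 0.48 ± 0.13 (SE), with a limma adjusted p of 0.203, and its further probe sets gave 0.62 and 0.65. Its relative Apex2, which works with the sliding clamp PCNA, had 7.22 and 7.34 in Hi and 6.71 and 6.50 in Lo, a difference of 0.67 ± 0.15 (SE). In both genes all probe sets had Hi above Lo with no overlap. Polb, the polymerase that fills the gap, had 9.71 and 9.81 in Hi and 9.27 and 9.42 in Lo, a difference of 0.42 ± 0.14 (SE). The probe sets of Polb disagreed: the other bright one gave 0.55, a dimmer one -0.33, and the dimmest was at least 1.60-fold higher in Lo. The mean over its probe sets was lower in Hi, at -0.10.

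Parp1 and Parp2 make poly(ADP-ribose) at broken strands and so recruit the scaffold Xrcc1 and its ligase Lig3. Parp1 had 12.71 and 12.21 in Hi and 12.04 and 12.18 in Lo, so its groups touched without overlap, and the difference was 0.35 ± 0.22 (SE). Its other bright probe sets were more even across replicates and both gave 0.53, and the dimmest was at least 1.72-fold higher in Hi, each with an unadjusted p under 0.05 and limma adjusted p of 0.175, 0.191 and 0.141. Parp2 had a difference of 0.23 ± 0.19 (SE) with overlapping groups. Xrcc1 had 9.18 and 9.32 in Hi and 8.91 and 9.49 in Lo, and Lig3 had 9.78 and 9.69 in Hi and 10.04 and 9.60 in Lo. In both genes the Lo arrays spanned the Hi arrays. The 95% intervals of the differences ran from -0.64 to 0.74 for Xrcc1 and from -0.66 to 0.48 for Lig3. The sign of Lig3 turned when the arrays were shifted to 1 median (0.01) and with its probe sets averaged (0.35). That average takes in probe sets at 0.43 and 1.24, in which only Hi replicate 2 exceeded the dim limit. The further bright probe sets of Lig3 gave -0.18 with overlap and 0.35 with Hi above Lo.

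Among the 5 mismatch repair genes 1 was higher at an unadjusted p under 0.05 and 0 lower, against 9.26% and 11.0% of all genes. With 5 genes a count of 1 does not set the route apart. The median difference was 0.40. Pms2, a subunit of the MutL endonuclease that nicks the new strand, had 8.75 on both Hi arrays and 7.75 and 8.17 in Lo, a difference of 0.79 ± 0.20 (SE) with a limma adjusted p of 0.177. Its further probe sets gave 0.26 and -0.15. Msh3, which pairs with the common MutS subunit to recognise larger loops, had 8.94 and 8.97 in Hi and 8.01 and 8.59 in Lo, a difference of 0.65 ± 0.24 (SE). The 2 brightest probe sets of Msh3 agreed, the second giving 0.74. Msh6, which recognises single mismatches, was bright throughout, with 12.03 and 12.07 in Hi and 11.74 and 12.02 in Lo. Its groups lay close, and the 95% interval of its difference ran from -0.29 to 0.62. Of the other MutL subunits, Pms1 had a difference of 0.40 ± 0.32 (SE) and Mlh3 of -0.10 ± 0.22, both with overlapping groups. The differences of this route lean on Lo replicate 1, which was the lower Lo array in 4 of the 5 genes: the median was 0.15 without that array and 0.76 without Lo replicate 2.

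In nucleotide excision repair 1 of 11 genes had an unadjusted p under 0.05, and it was higher, a share near the 9.26% of all genes. The median difference was 0.02. Ercc8, a subunit of the ubiquitin ligase that serves lesions where transcription has stalled, had 8.87 and 9.19 in Hi and 8.0 and 8.42 in Lo. The difference was 0.82 ± 0.23 (SE) with a limma adjusted p of 0.200, and the other bright probe set gave 1.41 ± 0.22. Its partner in that branch, the translocase gene Ercc6, never exceeded the dim limit. Of the sensors of the genome-wide branch, Ddb1 had 11.71 and 11.67 in Hi and 11.35 and 11.41 in Lo. This is a small difference, 0.30 ± 0.13 (SE), with close replicates; Ddb1 also serves many other ubiquitin ligases. Its partner Ddb2 had -0.07 ± 0.16 (SE) and Xpc -0.05 ± 0.14, with 95% intervals from -0.51 to 0.37 and from -0.44 to 0.33. Both turned just above 0 when the arrays were shifted to 1 median (0.02 and 0.04). A further Ddb2 probe set gave 0.24, with Hi above Lo.

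The helicases of the repair and transcription factor TFIIH stood on either side of 0, Ercc2 at 0.24 ± 0.16 (SE) and Ercc3 at -0.17 ± 0.26. The nucleases that cut beside the lesion did too. Ercc5, which cuts on the 3′ side, had 8.51 and 8.36 in Hi and 8.68 and 8.87 in Lo. The Hi arrays stood wholly below Lo, and the difference was -0.34 ± 0.15 (SE). The subunits of the 5′ nuclease differed, with Ercc4 at -0.34 ± 0.26 and Ercc1 at 0.28 ± 0.23, and both had overlapping groups. Further Ercc4 probe sets gave -0.36 with Hi wholly below Lo, 0.31 with Hi wholly above Lo, and 0.42 with overlap. Xpa, which verifies the damage, depended on the probe set. The brightest had 9.42 and 9.55 in Hi and 9.15 and 9.78 in Lo, with no order between the groups. A second had 6.48 and 5.70 in Hi and 4.44 and 4.79 in Lo. Its difference was 1.48 ± 0.33 (SE), with a limma adjusted p of 0.158, and Lo replicate 1 alone did not exceed the dim limit. The dimmest probe set was at least 1.46-fold higher in Hi. Without Lo replicate 1 the median of the route was -0.19 and without Lo replicate 2 it was 0.33.

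No gene of end joining differed at an unadjusted p under 0.05 in either direction (0 of 6). Over all genes 9.26% were higher and 11.0% lower, so with 6 genes this count does not set the route apart. The median difference was -0.06. Prkdc, the DNA-dependent kinase, had 8.83 on both Hi arrays and 8.40 and 8.67 in Lo, the only member of the route whose groups did not overlap. Its difference was 0.29 ± 0.16 (SE), with a 95% interval from -0.15 to 0.74. The Ku subunits that bind the ends gave -0.22 ± 0.22 (SE) for Xrcc5 and 0.09 ± 0.19 for Xrcc6, both bright and overlapping. Of the ligation complex, Lig4 had 7.85 and 7.93 in Hi and 7.14 and 7.93 in Lo, Xrcc4 had 8.94 and 8.63 in Hi and 9.45 and 8.62 in Lo, and Nhej1 had 8.42 and 8.51 in Hi and 9.53 and 8.38 in Lo. In each of these the Lo arrays were 0.79 to 1.14 apart and the intervals wide, that of Nhej1 running from -1.68 to 0.70. Mgmt, the direct reversal gene, had 9.15 and 9.45 in Hi and 9.28 and 9.77 in Lo, a difference of -0.23 ± 0.24 (SE) with overlapping groups.

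The routes also differed in how far the Lo arrays stood from each other. The median gap between the 2 Lo arrays was 0.61 in end joining, 0.50 in mismatch repair, 0.25 in nucleotide excision repair, 0.23 in the glycosylases and 0.20 in the later base excision steps, against 0.24 over all genes. The gaps between the Hi arrays were 0.09, 0.05, 0.15, 0.20 and 0.12 in the same order, against 0.15 over all genes. Over the 39 members the Lo gap was the larger in 30, or 76.9%, against 62.2% of all genes, and Lo replicate 1 was the lower Lo array in 30, against 54.1% of all genes. After each gene was centred on its mean, the glycosylases had medians of 0.26 and 0.22 on the Hi arrays and of -0.26 on both Lo arrays. The later base excision steps had medians of 0.16 and 0.21 in Hi, with -0.25 and -0.14 in Lo. In nucleotide excision repair and end joining the arrays of the 2 groups overlapped.

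**Figure D3:**
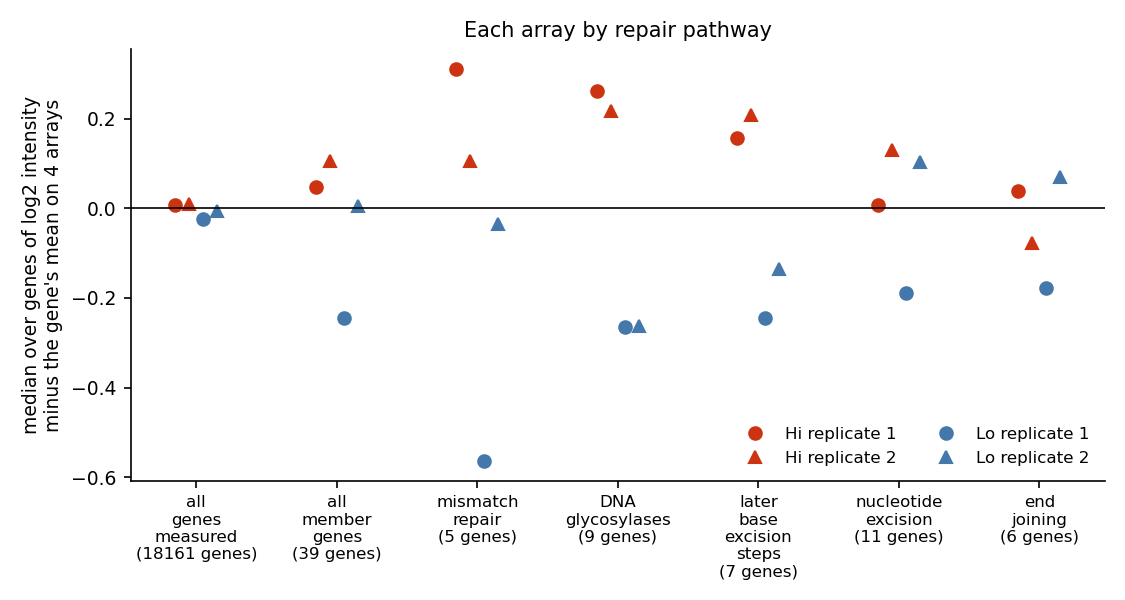
Median over all genes, all members and the genes of each route of the log2 intensity minus the gene's mean over the 4 arrays, for each array (red Hi, blue Lo; circles replicate 1, triangles replicate 2; direct reversal with its 1 gene left out). The Hi and Lo arrays lie apart in both base excision groups and in mismatch repair, where Lo replicate 1 is at -0.56 and Lo replicate 2 at -0.04, and they overlap in nucleotide excision repair and end joining.

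Of the 39 genes, 21 had over 1 probe set, and in 18 of them over 1 was above the dim limit on at least 2 arrays. In 8 of these 18 genes such probe sets had differences of both signs: Ddb2, Ercc2, Ercc4, Lig3, Mbd4, Mpg, Pms2 and Polb. Ung, with 1 probe set, and Neil3, with 1 above the dim limit, could not be compared in this way.

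**Figure D4:**
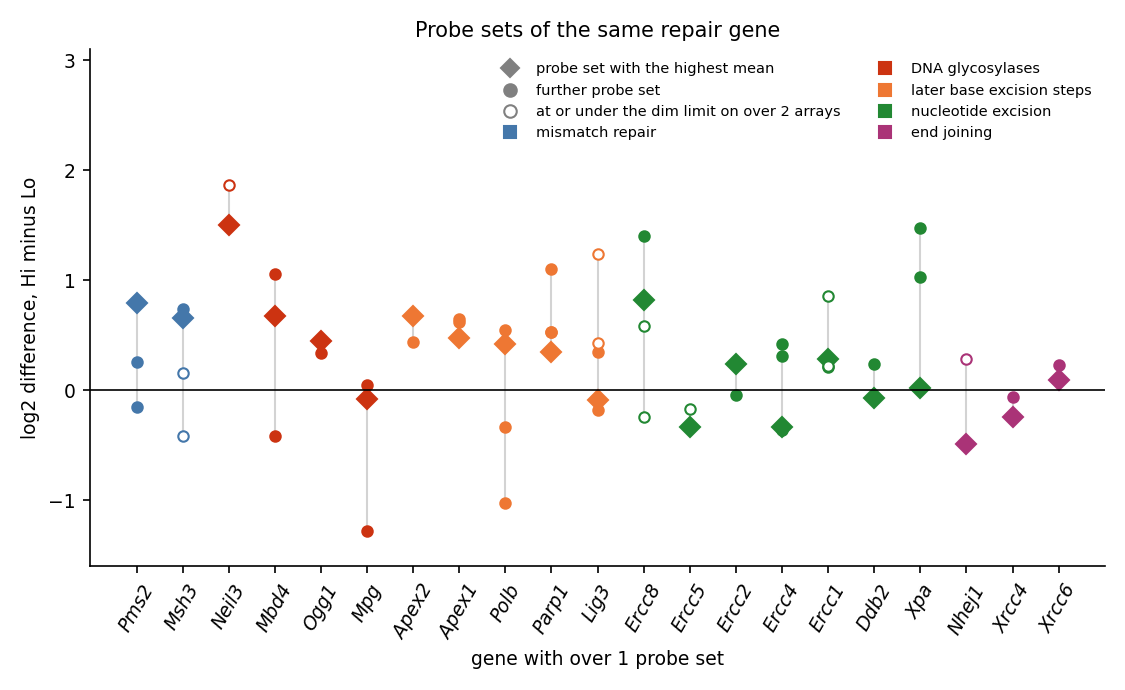
Log2 difference of Hi minus Lo for every probe set of the 21 repair genes with over 1 probe set; diamonds are the brightest probe set, circles the further ones, open circles those above the dim limit on under 2 arrays, and colours the repair route. All probe sets of Apex1, Apex2 and Parp1 lie above 0, while those of Polb and Mpg lie on both sides of 0; the lowest points of Polb and Mpg, the highest of Parp1 and the middle one of Xpa are fitted values against a group dim on both arrays, so their sizes are not measured.

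Partners of these genes were counted from lists made for each route. Of 15 genes that excise and refill the strand in mismatch repair, most of which also serve the fork, an unadjusted p under 0.05 was reached by 12 as higher and by 1 as lower, with a median of 0.86. The exonuclease gene Exo1 differed by 2.45 ± 0.16 (SE), the clamp loader gene Rfc3 by 1.17 ± 0.13 and the ligase gene Lig1 by 1.27 ± 0.14; the lower one was the polymerase subunit gene Pold4 at -0.66 ± 0.15. Of 6 measured partners in base excision and strand break repair 4 were higher and 0 lower (median 0.62). Of 14 in nucleotide excision repair 1 was higher, the TFIIH subunit gene Gtf2h4 at 0.61 ± 0.13 (SE), and 1 lower, Uvssa of the transcription-coupled branch at -0.79 ± 0.14 (median 0.07). Of 10 in end joining 1 was higher and 0 lower (median 0.10). The counts of partners in nucleotide excision repair and end joining were near the shares of all genes. Of the 2 direct reversal partners, the demethylase gene Alkbh2 was higher by 0.76 ± 0.13 (SE) and Alkbh3 stood at -0.03 ± 0.17.

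Marker genes of the cell cycle, of long-term stem cells and of erythroid cells differed between the groups. Their part in the values above was not tested. At an unadjusted p under 0.05 the shares over all genes were 9.26% higher and 11.0% lower. Of 18 measured genes of S phase and mitosis, 16 had an unadjusted p under 0.05 as higher and 0 as lower (median 1.03), and their intensities summed to 78833 and 80194 in Hi and to 44746 and 41945 in Lo. Of 9 long-term stem cell genes 8 were lower in Hi and 0 higher (summed 7233 to 7482 in Hi and 17601 to 19267 in Lo), and of 7 erythroid genes 5 were higher and 0 lower (12573 to 14652 in Hi and 2256 to 3172 in Lo, with Alas2 dim on all arrays). Of 8 mature granulocyte and macrophage genes 0 passed in either direction, and their sums overlapped (20379 to 29183 in Hi and 20285 to 31993 in Lo), with S100a8 at 12.52 to 13.11 on the 4 arrays although the cells were sorted as lineage negative. T and NK cell genes were divided: 1 of 7 was higher, Nkg7 by 0.55 ± 0.17 (SE), and 2 were lower, Cd8a at -1.19 ± 0.19 and Cd3d at -0.77 ± 0.25. Their sum of 7851 to 8547 in Hi and 5331 to 6589 in Lo was mostly Nkg7. Megakaryocyte genes were divided too, with 2 of 5 higher, among them Gp1bb by 0.80 ± 0.15 (SE), and 2 lower, Gp9 at -0.64 ± 0.17 and Vwf at -1.03 ± 0.31 (summed 5363 to 6220 in Hi and 4439 to 4930 in Lo). Of 4 B cell genes 0 passed in either direction (summed 2551 to 2741 in Hi and 3323 to 3360 in Lo, with Pax5 dim). Kit was bright on all arrays (11.39 to 11.95), while Ly6a, which encodes Sca1, was not measured by a probe set of its own. In these bulk samples fewer cells of a type and less RNA per cell cannot be told apart. As a sign of RNA quality, the 3′ probe set of the Gapdh controls exceeded the 5′ one by 0.63 and 0.65 on the Hi arrays and by 0.74 and 0.78 on the Lo arrays (log2). The Actb controls gave 0.60 and 0.55 on the Hi arrays, with 0.84 and 0.57 on the Lo arrays, so the groups overlapped and Lo replicate 1 stood highest. The part of either measure in the results was not tested.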

How the data were processed

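The authors deposited linear intensities, 1 for each probe set on each array; per the submitters' processing notes they come from RMA, whose version is not given in the sources used here. RMA gives the arrays like distributions, which hides any overall change in RNA content. The deposited intensities (2.96 to 22122) were log2-transformed with no offset. Of 45101 probe sets 64 controls were left out. Symbols came from the platform annotation, updated through a RefSeq table (GRCm38.p6): 34945 probe sets had 1 symbol, 932 several and 9160 none, and 59 symbols changed. Hi minus Lo was fitted over all probe sets and 4 arrays with limma 3.58.1 (R 4.3.3) by eBayes, two-sided, with Benjamini-Hochberg adjustment over 45037 probe sets, with 2 residual and 1.98 prior degrees of freedom; intervals are 95%. The dim limit of each array was its brightest of 27 bacterial control probe sets with no added transcript (4.74 to 4.87 on the log2 scale). A fold given as at least so much takes that limit as the level of the dim group. An exact permutation test of 2 against 2 arrays cannot reach 0.05 and was not run.

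Members and lists were chosen with earlier results of these data known. All members may be named; context genes are at most the 3 with the smallest p of a list, and S100a8, Kit, Pax5, Alas2 and Pold4 were named after their values were seen. Array values are given for members past an unadjusted p of 0.05 and for others by role. Alternatives were other scalings, an offset, a dim filter, the mean of probe sets, other variance settings, a replicate block and leaving out each array. The fit was tested on simulated data, where changes of the sizes seen in the members did not pass an adjusted p of 0.05. Few probe sets were changed there, which makes the adjustment harsher, so this outcome does not carry over to these arrays. With 2 arrays per group, the lack of adjusted calls does not show that the members are level. The number of arrays limits the precision.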

Additional observations from a re-analysis of the deposited data

How the results depend on the processing

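Of the 39 genes 22 kept the sign of their difference under all 14 alternatives, and 17 turned under at least 1; the cause was not tested. Ung and Neil3 had an unadjusted p under 0.05 under all 14. Adjusted calls numbered 2 (Ung and Neil3) with probe sets averaged per gene and 2 with 1 probe set per gene (chosen after seeing the data), where fewer features were tested, against 0 otherwise. At an unadjusted p under 0.05 the count higher in Hi was 3 to 9 when each array was left out, and the count lower in Hi was 0 to 1 (Nhej1, without Lo replicate 2) and 1 with averaged probe sets (Mpg). With the replicate number as a block 7 genes were higher at an unadjusted p under 0.05 and 0 were called. Same-numbered arrays deviated from their group means with a correlation of 0.07. This does not settle whether the numbers pair arrays from the same sort or mouse, which the labels do not say. Where an array was left out, its group's lone array was assumed to vary like the other group.

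Leaving out each array, medians ran from 0.10 to 0.34 over all members, 0.15 to 0.76 in mismatch repair, 0.44 to 0.61 in glycosylases, 0.28 to 0.42 in later base excision, -0.19 to 0.33 in nucleotide excision and -0.12 to 0.15 in end joining. The glycosylase median of 0.45 became 0.55 with arrays shifted to 1 median, 0.50 with quantile normalization, 0.48 with cyclic loess, 0.43 with log2(value + 16) and 0.40 with averaged probe sets; that of the later steps became 0.45 with the shift. All-probe-set medians were 0.04 as deposited and 0.14 after the shift.

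Genes that turned sign with the shift were Mpg (0.018), Smug1 (0.055), Lig3 (0.0085), Ddb2 (0.025) and Xpc (0.041). With averaged probe sets Polb (-0.10), Lig3 (0.35), Ercc4 (0.0082) and Ddb2 (0.084) turned. Ercc6, which is dim throughout, turned with quantile normalization (-0.0014), cyclic loess (-0.022) and log2(value + 16) (-0.00041). Leaving out each array, the range was -0.35 to 0.15 for Mlh3, -0.38 to 0.22 for Mpg, -0.32 to 0.24 for Smug1, -0.31 to 0.13 for Lig3, -0.24 to 0.34 for Xrcc1, -0.44 to 0.10 for Ercc3, -0.19 to 0.054 for Ddb2, -0.11 to 0.0038 for Xpc, -0.43 to 0.52 for Ercc6, -0.30 to 0.34 for Xpa, -1.06 to 0.080 for Nhej1, -0.039 to 0.75 for Lig4, -0.66 to 0.17 for Xrcc4, -0.11 to 0.30 for Xrcc6 and -0.47 to 0.016 for Mgmt. Scanner files were not used here, so background correction and slide were not varied. The signal over background limits Ercc6 and the dim probe sets.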
